A study of Mus musculus with 6 samples.

Results

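Among the interactions that HiCap called between promoters and distal regions in mouse embryonic stem cells (mESCs), 3674 pairs joined a promoter to a region 25 to 100 kb away with no other promoter fragment lying between their midpoints. They were chosen by 4 properties of the deposited lists. The same promoter fragment and the same distal region had to be listed in HiCap replicate 1 and in HiCap replicate 2, the pair had to be missing from the Hi-C list, the midpoints had to be 25 to 100 kb apart, and no promoter fragment named in any of the 4 lists could have its midpoint between them. The 3674 pairs came from 94896 pairs listed in both replicates, and held 1946 promoters of 1929 genes and 3628 distal regions. Of the 17456 called pairs in the same window outside Hi-C, 9505 had 1 to 4 promoters between and 4277 had 5 or more. Since presence in the lists chose the pairs, the numbers of pairs, genes and distances describe the selection and carry no test.

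HiCap is Hi-C made with the 4-cutter MboI and followed by hybridization capture of promoter fragments. It was run on 2 biological replicates of undifferentiated R1 mESCs, an established line of mouse embryonic stem cells grown on gelatin with serum and the cytokine LIF, and Hi-C was run on 2 replicates of the same line, pooled in 1 list. All samples came from this single cell line, and the labels name no treatment. Capture-C samples of the same line are not analysed here. The lists hold positions on mm9 and no read numbers, so the depth behind a pair and its strength are unknown.

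A promoter can contact an enhancer, a stretch of DNA that binds transcription factors and raises transcription of a gene, across many kilobases of chromatin. Enhancers do not always act on the promoter next to them, and other promoters may lie on the path of the fibre. Contacts that pass no other promoter are the simplest arrangement, and they can form only where a promoter borders a stretch free of promoters. Genes that direct development, such as transcription factors, signalling ligands and their receptors, are known in mammals for lying beside long gene-poor stretches that hold their regulatory elements.

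Sequences are shown for the farthest member region of 6 of the 8 developmental regulators with the most member pairs, because these are the fragments that a reader would test as candidate regulatory DNA of those genes. Every one of the 3628 member regions began and ended at an MboI site, and 3298 of them (90.9%) were a single MboI fragment. A fragment of at most 300 bases is given whole and a longer one by the 150 bases nearest to its promoter. Each is read 5′ to 3′ on the plus strand of mm9 with 1-based positions, and the capitals mark the MboI site GATC where it falls in the part shown.
Id1, chr2:152522441-152522590: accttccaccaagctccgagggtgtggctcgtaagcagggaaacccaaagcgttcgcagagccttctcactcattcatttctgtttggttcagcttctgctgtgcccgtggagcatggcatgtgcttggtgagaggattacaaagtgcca
Wnt9a, chr11:59184906-59185055: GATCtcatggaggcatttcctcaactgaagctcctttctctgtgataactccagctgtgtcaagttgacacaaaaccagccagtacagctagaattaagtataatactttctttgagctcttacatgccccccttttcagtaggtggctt
Tcf7l1, chr6:72666571-72666720: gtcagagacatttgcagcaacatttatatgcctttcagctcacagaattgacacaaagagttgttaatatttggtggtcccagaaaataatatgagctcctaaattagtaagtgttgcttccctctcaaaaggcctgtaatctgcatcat
Fgf3, chr7:151954924-151955073: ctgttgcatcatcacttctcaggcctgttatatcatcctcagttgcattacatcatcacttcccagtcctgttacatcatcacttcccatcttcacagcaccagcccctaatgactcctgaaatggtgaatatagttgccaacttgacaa
Tbx4, chr11:85764329-85764478: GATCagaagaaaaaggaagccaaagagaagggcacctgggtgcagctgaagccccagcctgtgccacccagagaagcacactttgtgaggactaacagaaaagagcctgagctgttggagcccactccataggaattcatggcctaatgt
Foxi3, chr6:70979661-70979941: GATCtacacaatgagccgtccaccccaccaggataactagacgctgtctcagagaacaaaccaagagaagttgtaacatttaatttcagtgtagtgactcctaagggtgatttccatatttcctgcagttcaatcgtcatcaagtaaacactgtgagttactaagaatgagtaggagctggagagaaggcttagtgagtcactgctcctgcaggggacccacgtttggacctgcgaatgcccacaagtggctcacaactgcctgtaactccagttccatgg
The Id1 fragment lay 39.6 kb upstream of the promoter, over exons of H13 and Gm17559, and the Tcf7l1 fragment lay 72.5 kb downstream in an intron of Tcf7l1 itself. The fragments of Wnt9a (64.8 kb downstream), Fgf3 (70.8 kb upstream), Tbx4 (54.5 kb downstream) and Foxi3 (73.1 kb downstream) overlapped no annotated gene. The G+C content of the 6 fragments, over the bases shown, was between 38% for Tcf7l1 and 53.3% for Id1. Over all called pairs, the regions of Id1 and Wnt9a were each linked to 2 promoters, and the others to 1.

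The replicate lists differed from each other by chromosome, and this bears on which genes could be members. The number of pairs in replicate 2 for each pair in replicate 1 differed between chromosomes and, on many, changed at a promoter position of 100 Mb. Taking each chromosome below and above 100 Mb as a block, the ratio ranged from 0.176 to 9.47 over 36 blocks, and it differed by more than 1.5 times across the boundary on 13 of the 16 chromosomes with both blocks. Comparing the 5 Mb before with the 5 Mb after 100 Mb, on chromosome X it was 10.6 and 1.95, on chromosome 5 it was 11.9 and 0.997, and on chromosome 13 it was 0.257 and 6.46, whereas on chromosome 11 it was 1.55 and 1.66. Pairs over 1 Mb apart made up 1.81% to 31.0% of the replicate 2 list by block, and at most 4.94% of the replicate 1 list. The part of these differences in the results was not tested. In the 17 blocks where the ratio was between 0.5 and 2, a range chosen after the values were seen, there were 2726 member pairs, or 74.2%, on 47.1% of the promoter-free sequence in the window.

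Member pairs were dense on some blocks and scarce on others. Over the genome there were 2.87 member pairs per Mb of promoter-free stretch at 25 to 100 kb from a promoter, counted on both sides of every listed promoter, for 1279 Mb in all. On chromosome 8 above 100 Mb there were 12.2 per Mb, on chromosome 15 above 100 Mb 9.61 from 20 members, on chromosome 11 above 100 Mb 9.31, on chromosome 19 6.75 and on chromosome 18 6.11. At the other end were chromosome X below 100 Mb with 0.21 per Mb, from 7 members, chromosome X above 100 Mb with 0.46 and chromosome 2 below 100 Mb with 0.463. On chromosome X below 100 Mb replicate 1 listed 1.59 such pairs per Mb and replicate 2 listed 17.0, above 100 Mb on chromosome X they listed 8.67 and 15.0, and on chromosome 2 below 100 Mb 3.43 and 14.6, whereas on chromosome 8 above 100 Mb they listed 59.2 and 70.3 per Mb. Chromosome 10 below 100 Mb had a ratio of 1.27 and 0.551 members per Mb, and it was sparse in both lists. Replicate 1 listed 6.10 such pairs per Mb there and replicate 2 listed 7.59. A gene on a sparse block that has no member pair is not comparable with one on a dense block.

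**Figure D1:**
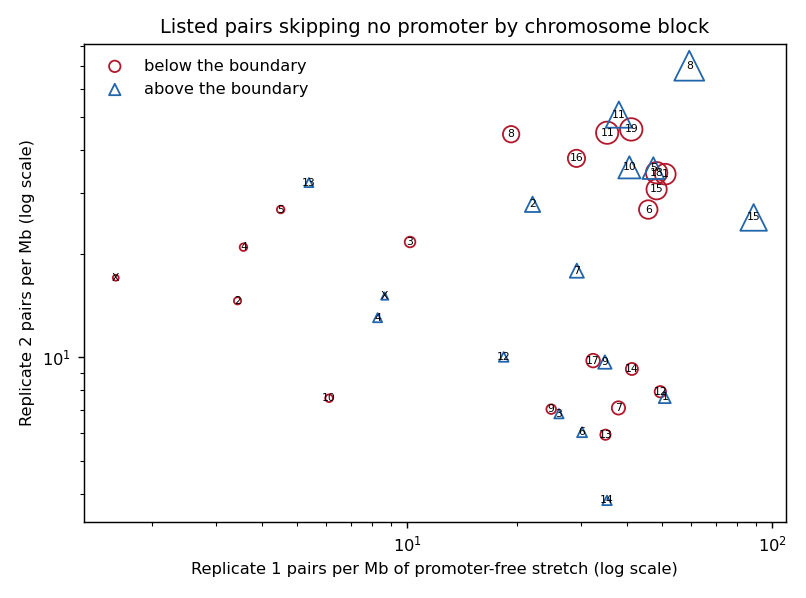
Pairs at 25 to 100 kb skipping no promoter in the replicate 1 list (x axis, log scale) and in the replicate 2 list (y axis, log scale), per Mb of promoter-free stretch, for 36 blocks labelled by chromosome; the boundary is the 100 Mb promoter position and marker area grows with member pairs per Mb. Large markers sit at the upper right, where both lists are dense, such as chromosome 8 above the boundary with 12.2 member pairs per Mb, and the smallest, chromosome X below the boundary, has 0.21.

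Without the requirement of both replicates, replicate 1 listed 37351 pairs of this kind at 8347 promoters and replicate 2 listed 28129 at 7548 promoters. The 3674 members were 9.84% of the first and 13.1% of the second. Pairs with promoters between were shared more often in each list, at 12.8% and 15.1% with 1 to 4 promoters between and at 16.5% and 16.9% with 5 or more. At 5520 promoters each replicate listed at least 1 pair of this kind, and at 3574 of those no pair was listed by both. Promoters with a member had a median of 6 such pairs in replicate 1 (quartiles 3 and 12) and of 5 in replicate 2 (2 and 9). The authors' combined list held 96.7% of the members.

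By gene, the members belonged to 1929 of the 21202 genes named in a HiCap replicate list, or 9.1%. A gene can have a member only if a stretch of at least 25 kb on 1 side of a promoter fragment holds no other promoter fragment. Of the 16152 genes with such a stretch, 11.9% had a member, and of the 20890 promoters with one, 9.32% did. The span between the neighbouring promoter fragments had a median of 106 kb for promoters with a member (quartiles 67.5 and 198 kb) and of 52.2 kb for all 33331 listed promoter fragments, which the rule itself favours. For 47.4% of the promoters with a member, the free stretch existed on 1 side only.

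The 10 genes with the most member pairs were of several kinds, and 6 of them had all their members on 1 side or all within neighbouring genes. The last place was shared by Myh9, Csnk1a1 and 4931408C20Rik with 14 each, and Myh9 was taken because it had the most called regions of all distances. LOC545261, a locus with no strand in the annotation used, had 26 member regions, with 62 pairs of this kind in replicate 1 and 35 in replicate 2. Its regions were all on the side of lower positions, and 19 lay within Csnk1a1, the gene of casein kinase 1 alpha, and the other 7 in no gene, from 25.9 to 81.2 kb away. Pvt1, a long non-coding RNA gene beside the proto-oncogene Myc, had 25 members, from 91 pairs in replicate 1 and 39 in replicate 2. Upstream of Pvt1 there were 16 regions, toward Myc, of which 2 overlapped exons of Myc, and the 9 downstream regions all lay in introns of Pvt1. Cbr2, which encodes a carbonyl reductase, had 24 members (38 pairs in replicate 1 and 29 in replicate 2), and every one lay upstream at 26.9 to 49.7 kb, in a stretch free of promoter fragments for 52.3 kb. On its downstream side the next promoter fragment was 1.95 kb away, so no member could lie there.

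Scd2, a stearoyl-CoA desaturase gene of lipid synthesis, had 18 members, all upstream at 26.6 to 56.1 kb, with 37 pairs in replicate 1 and 40 in replicate 2. For Scd2, 2 of these regions overlapped exons of the related gene Scd3 and 16 lay in no gene. Yars2, the mitochondrial tyrosyl-tRNA synthetase gene, also had 18 members, from 45 pairs in replicate 1 and 38 in replicate 2. None of the Yars2 regions lay in intergenic sequence: 12 were downstream within Dnm1l, a gene of mitochondrial fission, and 6 upstream within Pkp2, a plakophilin gene. Trib1, a pseudokinase gene, had 17 members on both sides, 11 upstream and 6 downstream, from 90 pairs in replicate 1 and 29 in replicate 2, reaching 95.5 kb.

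Eya2, a transcriptional cofactor with phosphatase activity that acts in organ formation, had 16 members at 1 of its 4 listed promoters, from 57 pairs in replicate 1 and 36 in replicate 2. For Eya2, 11 regions lay upstream in no gene, up to 97.3 kb away, and 5 lay in its own introns. E230016M11Rik had 16 (66 in replicate 1 and 38 in replicate 2), including 7 in introns of Gng12, a G protein gamma subunit gene. Alox8, an arachidonate lipoxygenase gene, had 15 (31 and 17), with 10 in Gucy2e and 5 in Alox12b. Myh9, the gene of a non-muscle myosin heavy chain, had 14 (49 and 25), all upstream, of which 13 lay in no gene. For 9 of these 10 genes replicate 1 listed more than replicate 2, Scd2 being the exception.

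**Figure D2:**
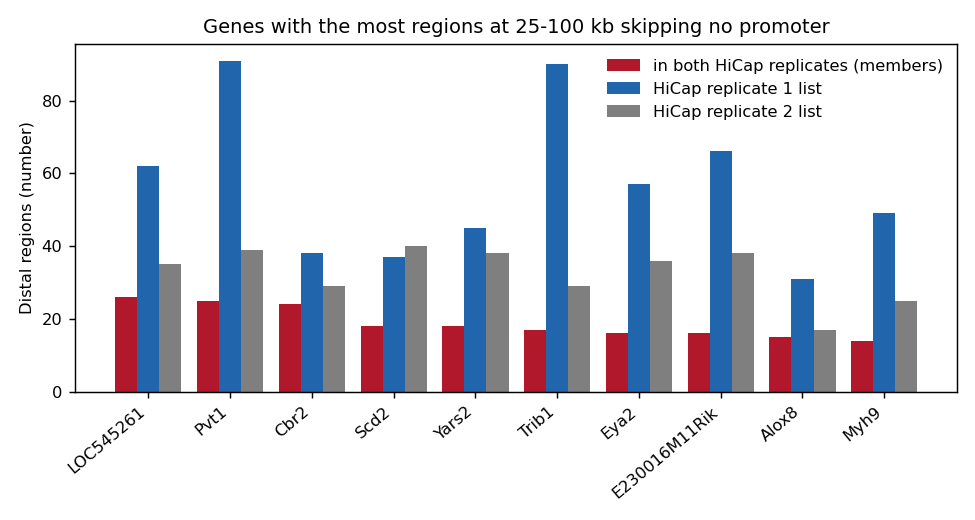
Number of distal regions at 25 to 100 kb skipping no promoter for the 10 genes with the most members: in both HiCap replicates, in the replicate 1 list and in the replicate 2 list. Bars run from 26 shared regions at LOC545261 to 14 at Myh9, and the replicate 1 list reaches 91 at Pvt1.

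Developmental regulators were taken as a list of transcription factors, ligands with their antagonists, and receptors of development, of which 475 were named in the HiCap lists and 378 had a promoter-free stretch of 25 kb. Members were found for 53 of the 378, or 14.02% (exact 95% interval 10.7 to 17.9%), beside 11.9% of all genes with such a stretch. If each of these genes had the share of all such genes on its own block, 11.7% would have had a member. Within the 17 blocks where the replicate lists were within 0.5 to 2 of each other, the numbers were 36 of 177 (20.3%, interval 14.7 to 27.03%) beside 15.7% of all 8091 genes. Membership is what the rule set, so these intervals, which cover counting error only, give the precision of a share and are no test against the background. Receptors were at 22.8% (13 of 57), transcription factors at 14.8% (33 of 223) and ligands at 7.14% (7 of 98). The interval ran from 12.7 to 35.8% for receptors, whose blocks gave 12.5% for all genes. It ran from 10.4 to 20.1% for transcription factors, whose blocks gave 11.5%, and from 2.92 to 14.2% for ligands, whose blocks gave 11.6%. Called pairs in the window that passed 1 or more promoters were found for 22.1% of the 475 listed regulators, beside 23.2% of all genes.

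Among the receptors, Pdgfrb, the beta receptor for platelet-derived growth factor, had 10 members, with 25 pairs in replicate 1 and 15 in replicate 2. All 10 Pdgfrb regions were downstream, at 25.3 to 52.0 kb, and 6 lay within the gene. Bmpr2 and Tgfbr3, receptors of the BMP and TGF-beta pathways, Ngfr, the low-affinity neurotrophin receptor, and Lrp6, a co-receptor for Wnt ligands, had 2 each. Those of Lrp6 came from 26 pairs in replicate 1 and 3 in replicate 2. The other 8 receptor genes had 1 member each, among them the Wnt receptors Fzd5 and Fzd7 and the R-spondin receptors Lgr4 and Lgr5.

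Among the transcription factors, Id1, an inhibitor of basic helix-loop-helix factors and a target of BMP signalling, had 9 members, with 18 pairs in replicate 1 and 11 in replicate 2. All 9 were upstream at 26.1 to 39.6 kb, and 8 of them overlapped H13, which encodes a signal peptide peptidase. Gata6, a factor of primitive endoderm, had 8 members, with 21 pairs in replicate 1 and 29 in replicate 2, in a span of 254 kb upstream and 739 kb downstream with no other promoter fragment. For Gata6, 6 regions lay upstream in no gene, all between 33.0 and 39.2 kb from the promoter, and 2 lay downstream at 28.0 and 54.4 kb. Tcf7l1, the factor that represses Wnt target genes in mESCs when beta-catenin is absent, had 8 (35 in replicate 1 and 14 in replicate 2), and all were in its own introns, 26.4 to 72.5 kb downstream. The next promoter fragment upstream of Tcf7l1 was 0.308 kb away.

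Tbx4, a T-box factor of the hindlimb, had 6 (14 and 21 in the replicate lists), all downstream in no gene at 27.5 to 54.5 kb. Foxi3, a forkhead factor of ectodermal organs, had 5, and Pou4f3, a factor of inner ear hair cells, had 4, of which 3 were upstream. Pou2f3, a factor of tuft cells, had 3, all in its own gene, and Nr2f2, an orphan nuclear receptor, had 3 downstream at 27.5 to 35.9 kb in a stretch free of promoter fragments for 864 kb. Neurod4, Tbx21, Atoh8, Foxk1 and Neurod6 had 2 each, and the other 20 transcription factor genes had 1, among them Gata2, Sall1, Gbx2, Olig1, Olig2, Nkx2-5, Tbx5, Sox1, Foxa2 and Pax2. No gene of the Hox clusters had a member. Only 5 of the 39 listed Hox genes (12.8%) had a promoter-free stretch of 25 kb, beside 76.2% of all genes. For these 5, having no member allows up to 52.2%, and their blocks gave 13.96%, so the absence says little. Called pairs in the window that passed 1 or more promoters were found for 23 of the 39 (59.0%), beside 23.2% of all genes.

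Ligand genes with members numbered 7 of 98, and the 11.6% of their blocks lay within the interval of that share. Wnt9a had 8 members, with 23 pairs in replicate 1 and 22 in replicate 2, all downstream at 26.0 to 64.8 kb, and 7 of them lay in no gene. Fgf3, a fibroblast growth factor gene of early development, had 6, with 27 pairs in replicate 1 and 11 in replicate 2, all upstream in no gene at 27.8 to 70.8 kb. Vegfa, which drives blood vessel growth, had 2 at different promoters, and Fgf10, Fgf21, Nrg4 and Wnt16 had 1 each.

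**Figure D3:**
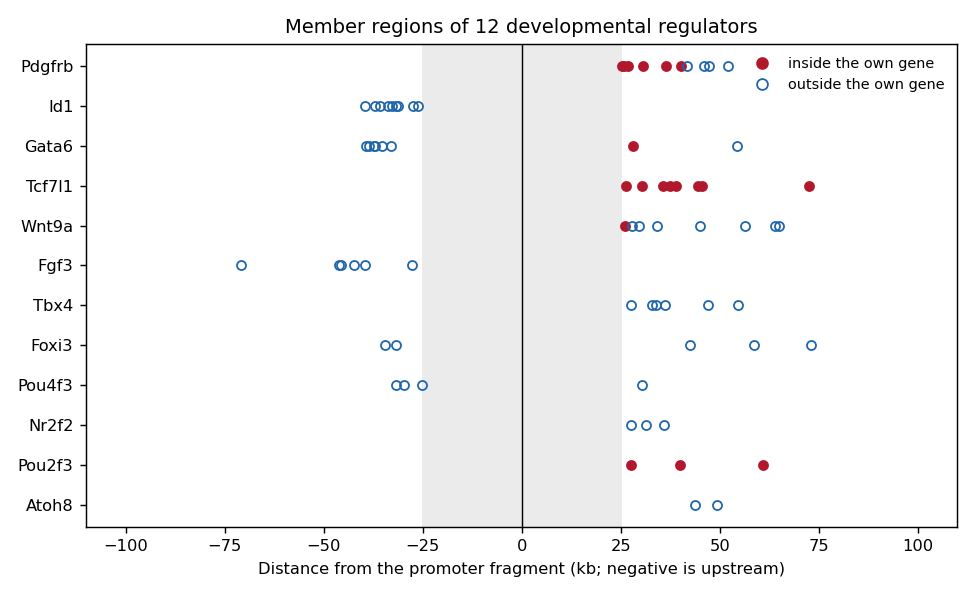
Position of each member region (circle) around the promoter fragment of the 12 developmental regulators with the most members, in kb with negative values upstream; filled circles lie inside the own gene and the grey band is the part of the map below 25 kb that the rule leaves out. Id1 and Fgf3 have regions upstream only, Pdgfrb, Tcf7l1, Wnt9a and Tbx4 downstream only, and Gata6 and Foxi3 on both sides.

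The 122 pairs of developmental regulators resembled those of other genes in distance and in the share of promoters with a single member. Their median distance was 35.8 kb (95% interval 33.7 to 38.2 kb, n = 122), beside 35.0 kb (34.6 to 35.6 kb, n = 3552) for the pairs of other genes, and 65.5% of their 55 promoters had a single member, beside 64.5% of 1891. By place, 61.5% lay in no annotated gene (52.2 to 70.1%), beside 43.6% (41.9 to 45.2%) for other genes, while 24.6% and 24.4% lay within the own gene. Of the pairs with a known strand, 39.5% were upstream (30.7 to 48.9%, n = 119), beside 47.7% (45.9 to 49.4%). The free span around the promoters of developmental regulators had a median of 185 kb, beside 105 kb for other genes. The mean number of members per promoter was 2.22, beside 1.88 for other genes. Pairs of 1 promoter share that promoter and its surroundings, so these intervals are narrower than those over genes would be, and Pdgfrb, Id1, Gata6, Tcf7l1 and Wnt9a alone gave 43 of the 122 pairs.

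The pluripotency list, genes of the pluripotency network and of LIF signalling with others linked to the undifferentiated state, had the highest share of the regulator lists. Members were found for 11 of 34 such genes with a promoter-free stretch, 32.4% (17.4 to 50.5%), beside 11.9% of all genes and 11.0% by their blocks. A higher share was not particular to members. Called pairs in the window that passed 1 or more promoters were found for 39.0% of the 41 listed genes, beside 23.2% of all genes. Klf2, a Krüppel-like factor of naive pluripotency, had 12 members, with 27 pairs in replicate 1 and 42 in replicate 2. Of the Klf2 regions 8 were upstream, 7 of these in no gene, and 4 downstream within Eps15l1. Besides Id1, Socs3, the feedback inhibitor of LIF signalling, had 4 (17 and 18), all downstream at 36.2 to 61.4 kb, and Spp1, Prdm14 and Lifr, the LIF receptor gene, had 3 each. Esrrb, an orphan nuclear receptor of the pluripotency network, had 1 region 34.2 kb upstream of the promoter concerned, 1 of 3 listed for the gene, which overlapped an exon of Esrrb itself, from 22 pairs in replicate 1 and 3 in replicate 2. Klf4 had 1 at 52.6 kb downstream in no gene, from 2 and 7. Nanog (13 and 3 pairs in the replicate lists) and Sox2 (3 and 4) had pairs of this kind in each list and none in common, and Pou5f1 had none in either.

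Beside 11.9% of all genes with a free stretch, ribosomal protein and histone genes had higher shares. The intervals of oxidative phosphorylation and glycolysis genes held that share of all genes. Olfactory and vomeronasal receptor genes were almost without members. Cytosolic ribosomal protein genes had members in 10 of 35 genes with a free stretch (28.6%, 14.6 to 46.3%), led by Rps14 with 13, all in introns of Ndst1, a heparan sulfate sulfotransferase gene, and Rpl37a with 5 in no gene. Histone genes had them in 7 of 18 (38.9%, 17.3 to 64.3%), of which 6 belong to the Hist1 cluster on chromosome 13. That cluster lies on a block with a replicate ratio of 0.244, and in the 17 blocks with a ratio of 0.5 to 2 the count of histone genes was 0 of 4, which allows up to 60.2%. In those blocks ribosomal protein genes had members in 8 of 17 (23.0 to 72.2%) and pluripotency genes in 6 of 13 (19.2 to 74.9%), beside 15.7% of all genes. Hist1h2ac and Hist1h2bc share 1 promoter fragment and its single pair, so these are not independent genes. Oxidative phosphorylation genes were at 10.5% (4 of 38, 2.94 to 24.8%), beside 11.4% by their blocks, with 1 member each at Atp5g1, Atp5g2, Cox4i1 and Ndufa9. In glycolysis it was 1 of 13 (7.69%, 0.195 to 36.0%), beside 9.16% by their blocks, and the gene was Hk2 at 90.3 kb. Axon guidance genes were at 12.96% (7 of 54, 5.37 to 24.9%), beside 11.4% by their blocks. They included Sema6d and Sema3g with 2 members each and Ntn1 and Sema5b with 1. Olfactory receptor genes had a member in 1 of 383 (0.261%, at most 1.45%), Olfr1423, and vomeronasal receptor genes in 0 of 121, which allows up to 3.00%. Their blocks gave 11.8% and 12.8% for all genes. Called pairs in the window that passed 1 or more promoters were found for 23.2% of all genes. That share was 56.3% for ribosomal protein, 52.4% for glycolysis, 38.0% for oxidative phosphorylation, 28.1% for histone and 23.1% for axon guidance genes. It was 1.01% for olfactory and 0% for vomeronasal receptor genes, so their low shares were not particular to members.

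Markers of fibroblasts were counted as a check on the label of the cells, which is weak because the lists hold no expression level. Of 20 fibroblast genes with a free stretch 5 had a member (25%, 8.66 to 49.1%), beside 11.9% of all genes and 12.2% by their blocks. The 5 were Col1a1 with 12, Pdgfrb with 10, Acta2 with 2, and Col6a3 and Fbn1 with 1 each. Col1a1, the gene of type I collagen, had 35 pairs in replicate 1 and 44 in replicate 2, and its 12 members all lay upstream in no gene at 40.5 to 82.1 kb. Called pairs in the window that passed 1 or more promoters were found for 52.4% of the 21 listed fibroblast genes, beside 23.2% of all genes. A higher share was thus not particular to members, and a listed contact does not give the level of a gene.

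**Figure D4:**
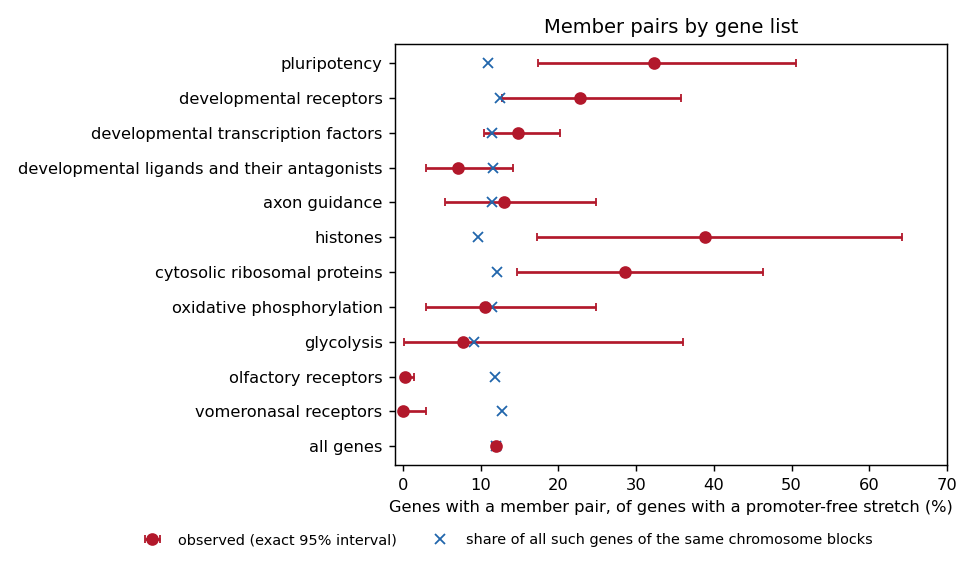
Share of genes with a member pair among the genes of each list with a promoter-free stretch of 25 kb or more (circles, exact 95% intervals over genes), beside the share of all such genes on the same chromosome blocks (crosses). Pluripotency genes are at 32.4% and all genes at 11.9%, and olfactory and vomeronasal receptor genes are near 0.

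Members lay on both sides of their promoters alike. Strand was known for 3361 of the 3674 pairs, and 1592 of these were upstream and 1769 downstream, or 47.4% upstream (45.7 to 49.1%). Per Mb of promoter-free stretch there were 3.13 members upstream and 3.06 downstream. The single lists gave 31.9 and 32.3 per Mb in replicate 1 and 24.4 and 23.8 in replicate 2. Among called pairs with 1 to 4 promoters between, 49.2% were upstream (48.2 to 50.3%), and with 5 or more 47.1% (45.5 to 48.7%). Of 384 promoters with a free stretch on both sides and at least 2 members, 48.4% had them on 1 side only.

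Distances crowded toward the near end of the window. The median was 35.0 kb (95% interval 34.6 to 35.6 kb; quartiles 29.0 and 47.7 kb), beside 42.3 kb for pairs with 1 to 4 promoters between and 59.2 kb for those with 5 or more, a difference that the rule helps to set because longer stretches pass more promoters. Of the members 62.0% were at 25 to 40 kb and 2.91% at 85 to 100 kb. Per Mb of promoter-free stretch, members numbered 5.83 at 25 to 40 kb, 2.62 at 40 to 55 kb, 1.33 at 55 to 70 kb, 1.06 at 70 to 85 kb and 0.648 at 85 to 100 kb. The replicate 1 list had 52.1 per Mb in the first of these bins and 10.2 in the last, and the replicate 2 list had 34.7 and 11.2. Replicate 1 also held 16.8% of the replicate 2 pairs at 25 to 40 kb and 5.79% of those at 85 to 100 kb.

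**Figure D5:**
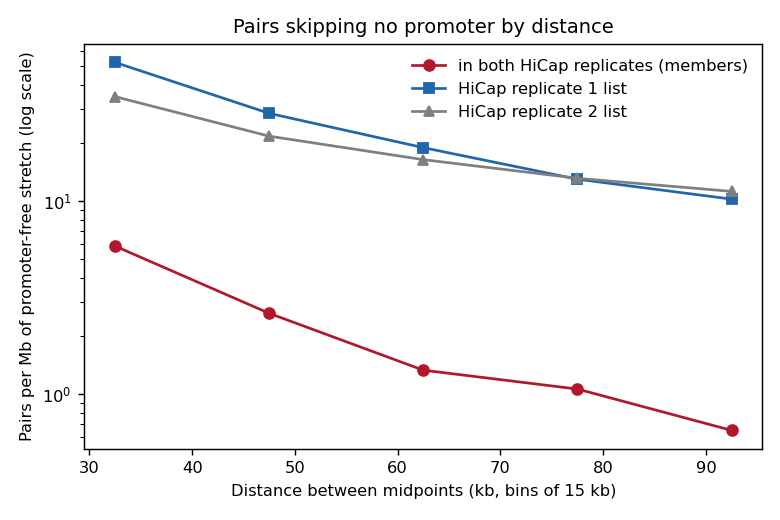
Pairs skipping no promoter per Mb of promoter-free stretch (y axis, log scale) by distance in bins of 15 kb (x axis) for members and for each replicate list. The members run from 5.83 per Mb at 25 to 40 kb to 0.648 at 85 to 100 kb, and the replicate lists decline less.

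At the ends of the window, the shortest members were at 1810044D09Rik (25.003 kb), Pim3 (25.006 kb) and Chd5 (25.009 kb), and the pairs just outside were at Tm9sf4 (24.994 kb), Cd80 (24.987 kb) and Slc7a1 (24.984 kb). The longest members were at Rhbdd1 (99.9 kb, in its own intron), Bend6 (99.3 kb) and Tmem17 (98.9 kb), and just outside were Zcchc2 (100.4 kb), Mir1903 (100.6 kb) and a locus named only by its clone (100.9 kb). Called pairs that skipped no promoter and were not in Hi-C numbered 44552 at 1 to 25 kb and 206 at 100 to 1000 kb, so both ends of the window cut through a continuous range.

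Among promoters with a member and with another promoter fragment on each side, the free stretches were longest at Tbl1xr1 (1710 kb upstream and 4255 kb downstream), Sel1l (3843 kb upstream), Ywhaq (3359 kb upstream), 4931408C20Rik (2093 kb upstream and 857 kb downstream) and Igsf11 (2630 kb downstream). Promoters whose free stretch ran to a chromosome end are left out of this order. Tbl1xr1, a corepressor subunit gene, had 1 member 94.8 kb upstream. Sel1l, Ywhaq and Igsf11 had 1 member each, while 4931408C20Rik had 14, with 87 pairs in replicate 1 and 33 in replicate 2.

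In place, 44.2% of members (42.6 to 45.8%) lay in no annotated gene, 24.4% within the own gene (15.9% in introns only and 8.49% touching an exon) and 31.4% within another gene. Pairs with 1 to 4 promoters between lay within the own gene in 8.34% and in no gene in 34.1%, and those with 5 or more in 1.24% and 31.6%. Of the downstream members 44.8% (42.4 to 47.1%) were inside the own gene. For 1182 members (32.2%) the annotation placed the start of some transcript between promoter and region that the lists do not name as a promoter, and for 245 (6.67%) the start of another protein-coding gene. The rule therefore concerns promoters that the lists name, not all annotated starts.

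For most members the own promoter was not the nearest listed promoter, even though none lay between. The own promoter was nearest for 38.9% (37.3 to 40.5%), and for the rest a promoter on the far side of the region was closer. Pairs of the same kind in replicate 1 only had the own promoter nearest in 48.9% (48.4 to 49.4%), and those in replicate 2 only in 49.0% (48.4 to 49.6%). At 25 to 40 kb the shares were 42.5%, 53.9% and 52.8%. The next promoter beyond a member region was at a median of 25.6 kb (quartiles 10.0 and 65.8 kb), against 39.7 kb for replicate 1 only and 42.7 kb for replicate 2 only, and within 5 kb for 11.0%, against 6.87% and 6.70%. Member regions were also longer and richer in G+C than those in 1 replicate. Their median length was 720 bp (quartiles 454 and 1115 bp), against 591 bp in replicate 1 only and 492 bp in replicate 2 only, and their median G+C content was 46.5%, against 44.3% and 44.6%. The part of fragment length and base composition in being listed by both replicates was not tested. Members and pairs in 1 replicate also lay on different blocks. For example, members were 2.81% of the replicate 1 pairs of this kind on chromosome 14 above 100 Mb and 24.5% on chromosome 11 above 100 Mb. The part of the blocks in the differences of this paragraph was not tested.

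Of the 1946 promoters 1256 had 1 member (64.5%, 62.4 to 66.7%), 366 had 2 and 129 had 5 or more, and these 129 held 28.4% of the members. The mean was 1.89 per promoter. Promoters with a member had a median of 8 called regions at all distances (quartiles 4 and 16), and for 194 of them (9.97%) all called regions were members. Of the 3628 distal regions 3582 had 1 member promoter and 46 had 2, which is the most the rule allows, since only the nearest promoter on each side of a region can be reached without passing another. Over all called pairs, 74.1% of the members (72.7 to 75.5%) had a region with no other promoter, beside 48.2% of the pairs with 1 to 4 promoters between and 27.2% with 5 or more. For the 144 called pairs in the window that skipped no promoter but were in the Hi-C list, it was 47.9% (39.5 to 56.4%). The high share was therefore not common to all called pairs that skipped no promoter. The share in the 5 or more class falls partly by construction, since such regions lie among many promoters. For 10.2% of members the region adjoined another member region of the same promoter.

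The 5 member regions with the most promoters each had 2 member promoters. The first, at chr6:82946292-82947622, lay in an intron of D6Mm5e, was linked to D6Mm5e at 49.9 kb and to RP23-238I17.3 at 30.9 kb, and had 20 promoters over all distances. The others were at chr15:88721310-88722346 in Ttll8 (Pim3 and Ttll8), chr9:107640142-107640687 (Rbm5 and Sema3f), chr1:95300507-95301454 (Ano7 and Hdlbp) and chr18:61749364-61750172 in Csnk1a1 (Csnk1a1 and LOC545261), with 7 to 9 promoters over all distances.

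Matches to the letters of 3 motifs were counted, with no chance rate computed. In the 300 bases around the midpoint of the region, the octamer ATGCAAAT, bound by POU factors, was found on either strand in 1.54% of member regions (1.17 to 2.00%), beside 1.06% and 1.41% with 1 to 4 and with 5 or more promoters between and 1.78% and 1.80% of the regions that only replicate 1 or only replicate 2 listed. The Esrrb-type site TCAAGGTCA was in 0.882% (0.604 to 1.24%), beside 1.03%, 0.939%, 0.909% and 0.813% in the same classes. The letters CNAGGGGGC, part of the CTCF motif, were in 0.91% (0.627 to 1.28%), beside 1.01%, 1.13%, 0.57% and 0.518%. A match is only a match of letters.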

How the data were processed

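Reads of HiCap (replicates 1 and 2) and of Hi-C from R1 mESCs were mapped to mm9 by the authors, who assigned read ends to MboI fragments and listed interactions of promoters supported by a minimum of read pairs. The deposited values are start and end positions of fragments on mm9, with no counts, normalization or scores. The 4 lists are those of each HiCap replicate, the authors' combined calls and Hi-C with replicates pooled. All their columns of positions were used, and 0 columns of other samples were left out.

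Pairs were matched on exact fragment positions, and distance and order were taken from midpoints. The selection was tested on simulated data. Promoter-free stretches ran to the next listed promoter fragment, and 3 fragments placed beyond a chromosome end were ignored there. Side and place came from GENCODE vM1 on the same build, in which 1773 of the 1929 genes were found by symbol or synonym within 5 kb of the promoter fragment; a pair has a side only where the gene names of its fragment give 1 strand. Reported regions keep the positions of the files, in which a start is 1 base before the region's first base; printed sequences carry their 1-based positions. Shares carry exact Clopper-Pearson 95% intervals, and medians binomial ones, for counting error only. No test was made, because the selection used the lists themselves. The members and gene lists were chosen with earlier results of these data known. Named were the genes with the most members overall and in each list, those at the ends of the window and in the longest free stretches, and genes named in the study. Python 3.11.15, numpy 2.4.6, scipy 1.17.1, pandas 2.3.3 and pysam 0.24.0 were used.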

Additional observations from a re-analysis of the deposited data

How the results depend on the processing

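Each of 7 results was recomputed under 10 alternatives, 9 planned and 1 (the blocks) added after the data were seen, and 52 of the 70 values stayed within 1.5 times the count or within the 95% interval of the share or median. The 18 others follow. With 1 replicate alone, pairs numbered 28129 to 37351 and genes 7265 to 7932, the median distance was 38.0 to 40.9 kb, 35.4 to 36.6% of promoters had 1 pair, 27.04 to 27.4% of regions were inside the own gene and 41.7 to 44.4% of all listed developmental regulators had a pair. The share of all genes named in a HiCap list rose too, to 34.3% with replicate 2 alone and 37.4% with replicate 1 alone. Where only promoters of another gene counted as between, 43.3% of pairs were upstream and 29.0% inside the own gene. With annotated start sites also counted, the median distance was 33.9 kb. In the 17 blocks with a replicate ratio from 0.5 to 2, there were 1267 genes, 59.0% of promoters had 1 pair, and 15.1% of all listed developmental regulators there had one, beside 11.2% of all 475 over the genome. These 2 shares include regulators without a promoter-free stretch. Among genes with such a stretch, the share in these blocks was 20.3% for developmental regulators (36 of 177) and 15.7% for all genes. The share of all genes with such a stretch was thus also higher in these blocks than over the genome, where it was 11.9%. The causes were not tested. No paired analysis was possible because the results come from no test and the lists hold no replicate values beyond presence. Read numbers are unknown, so absence from a list cannot be told apart from low depth.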
